A study of Mus musculus with 16 samples.

Results

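CTCF binding sites were compared between neural progenitor cells (NPCs) and mouse embryonic stem (ES) cells grown in 2i medium, using the deposited peak list of each cell type. The members were all peaks of both lists, 28860 from NPCs and 56138 from ES 2i cells, together 84998 of the 135183 peaks in the 3 CTCF lists of the series. The third list, 50185 peaks from ES cells in serum, served for scale. Each list came from 1 chromatin immunoprecipitation (ChIP) library, so every value below describes a pair of libraries, and no test between cell types was made on them. The sites have not been checked against replicates.

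The ES cells were the male V6.5 line, of 129SvJae x C57BL/6 background. For the 2i group they were kept in serum-free medium with LIF and the inhibitors CHIR99021 and PD0325901. They were expanded on feeder fibroblasts and then passaged onto gelatin to remove these. The NPCs were primary cells from whole brains of neonatal 129SvJae x C57BL/6 mice carrying Sox2-eGFP, a green fluorescent reporter of Sox2. They were grown as neurospheres and then plated on poly-D-lysine and laminin. Their sex was not given, and whether several animals were pooled was not given either. Apart from these culture conditions, no treatment was applied to either group, and both were precipitated with the same anti-CTCF antibody. Cell type, culture conditions (medium and inhibitors) and cell origin (line against primary culture, animals, transgene, sex) cannot be told apart in this design. CTCF peaks do not measure expression, so neither cell identity nor remaining feeder cells could be checked with marker genes.

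CTCF is a zinc-finger DNA-binding protein that binds many sites across mammalian genomes and is known as an insulator and architectural protein. Cohesin, the ring complex that extrudes chromatin loops, is halted at bound CTCF sites, and many loops and domain borders have CTCF at their anchors. Many CTCF sites are bound in most cell types, while others are bound in some cell types and not in others. DNA methylation over the site is one known influence on binding.

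The NPC list was about as long as 51.4% of the ES 2i list, and its peaks were narrower. The median NPC peak was 206 bp wide (quartiles 168 and 248, range 123 to 951), against 279 bp in ES 2i cells (quartiles 220 and 346, range 152 to 1361). Peaks of 500 bp or more made up 0.468% of the NPC list and 3.85% of the ES 2i list. NPC peaks covered 6.21 Mb of the genome and ES 2i peaks 16.5 Mb, a ratio of 0.376. The ES serum list was nearer to ES 2i in number and wider than both, with a median width of 311 bp and 16.5 Mb covered. The lowest −log10 p was the same, 8.22, in all 3 lists. The depth of the libraries is not known from the lists, and the part of depth or precipitation efficiency in the shorter NPC list was not tested.

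NPC sites were nearly all also ES 2i sites, whereas about as many ES 2i sites lacked an NPC peak as had one. An NPC peak overlapped an ES 2i peak by at least 1 bp in 27323 cases, 94.7% of the NPC list (95% Wilson interval 94.4 to 94.9). The 1537 NPC peaks without an ES 2i peak were 5.33% of the list. In the other direction 27133 ES 2i peaks, 48.3% (47.9 to 48.7), had an NPC peak, and 29005 or 51.7% had none. These intervals cover counting error only. The partnership was almost always one to one, since 27319 NPC peaks met exactly 1 ES 2i peak and 4 met 2. Of the ES 2i peaks, 188 met 2 NPC peaks and 3 met 3.

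The ES serum list gave the scale for overlap between lists of the same cell line. Here 83.1% of ES 2i peaks had a serum peak (16.9% had none), and 92.8% of serum peaks had an ES 2i peak. NPC peaks met serum peaks (93.9%, with 6.12% unmatched) about as often as they met ES 2i peaks, and 53.5% of serum peaks had an NPC peak. Of the 29005 ES 2i peaks without an NPC peak, 20173 (69.6%) were also in the serum list, and the remaining 8832 were in the 2i list alone of the 3. Of the 1537 NPC peaks without an ES 2i peak, 418 (27.2%) overlapped a serum peak, leaving 1119 in the NPC list alone. Presence in both ES lists went with presence in NPCs. Among ES 2i peaks with a serum peak 56.8% had an NPC peak, and among those without one 6.77% did.

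Where both lists had a site, the NPC interval lay inside the ES 2i interval and on the same summit. Among the 26934 pairs of peaks that met only each other, the NPC peak was the narrower in 94.4% and lay wholly inside the ES 2i interval in 83.3%. The median widths were 209 bp in NPCs and 326 bp in ES 2i cells, with a median ratio of 0.650. Summits were a median of 14 bp apart, within 20 bp in 67.8% of pairs and within 100 bp in 99.6%. The ranks of the authors' fold enrichment, the height of a peak over its background, were only loosely related between lists (Spearman's rho 0.339 over the 26934 pairs, which share a genome, an antibody and a threshold). These fold values are the authors' own for each peak and were used only to rank peaks within a list.

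Overlap rose with the strength of the peak, in a graded way in ES 2i cells and from a high floor in NPCs. When the ES 2i list was cut into 10 groups of equal size by fold, 11.2% of the weakest group had an NPC peak. The next groups had 15.6%, 22.1%, 32.1%, 43.1%, 53.9%, 63.3%, 72.4% and 79.9%, and the strongest 89.7%. The serum list overlapped 48.1% of the weakest and 99.96% of the strongest group of the same peaks. In the NPC list the share with an ES 2i peak went from 86.0% in the weakest group to 99.8% in the strongest. Among peaks of like strength, presence in serum still went with presence in NPCs. In the fifth group from below, 46.4% of the 5072 ES 2i peaks with a serum peak had an NPC peak, against 11.8% of the 542 without one. The median fold within the ES 2i list was 22.7 for peaks with an NPC peak and 12.2 for those without, and within the NPC list 15.4 and 10.4. The 28860 ES 2i peaks of highest fold (16.25 or more), a list as long as the NPC list, still differed from it. Of them 71.1% had an NPC peak, and 71.7% of NPC peaks had one of them.

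**Figure D1:**
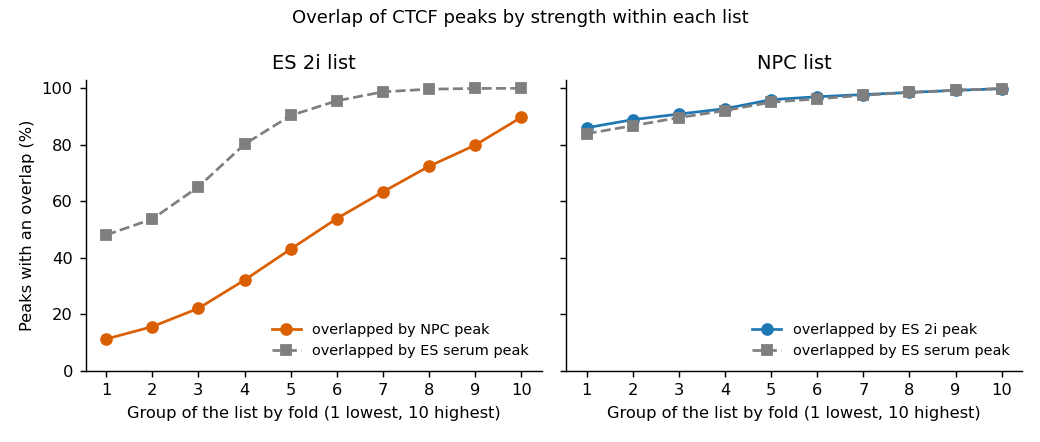
Share of peaks with an overlapping peak in another list (vertical axis, percent) by group of fold enrichment (10 of equal size) within the ES 2i list (left) and the NPC list (right). In the ES 2i list the share with an NPC peak climbs from 11.2% to 89.7% and stays under the serum line, while in the NPC list every group is at 86.0% or above for ES 2i overlap.

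The strongest sites of each kind illustrate the range. The strongest ES 2i site that NPCs shared lay at chr12:85930610-85931167 (mm9, as all positions here), with a fold of 95.4 in ES 2i cells, and its NPC peak had a fold of 57.8, high in its own list too. The next shared sites were chr10:67475870-67476331 (fold 90.3) and chr5:35704354-35704990 (84.5), followed by chr8:28231062-28231907 (82.7) and chr11:102963773-102964418 (80.8). Their NPC folds were 13.4, 49.0, 10.9 and 31.1. The sites on chromosomes 10 and 8 were thus below the NPC median fold of 15 while near the top of the ES 2i list. Which gene lies at each of these places was not analysed here.

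The strongest ES 2i site without an NPC peak, chr8:89450030-89450607, was 578 bp wide with a fold of 59.6 and ranked 119 of 56138. The nearest NPC peak was 7.63 kb away. It was followed by chr2:64662548-64662993 (fold 59.1), chr4:152074206-152074887 (58.6), chr5:120915052-120915464 (56.4) and chr6:146378449-146378857 (55.4). All 5 had an ES serum peak, as did 99.96% of all peaks in the strongest ES 2i group. In the NPC list the strongest site without an ES 2i peak ranked only 1059 of 28860. It lay at chr3:146446677-146446936, with a fold of 32.5 and no serum peak. The next 4, at chr14:72070284-72070523 (31.2), chr3:43586979-43587212 (30.2), chr16:11697890-11698096 (28.4) and chr16:22795683-22795887 (27.0), did overlap a serum peak. The nearest ES 2i peak to the chromosome 14 site was 513 kb away. Few unmatched sites lay close to a site of the other list. Only 4.62% of NPC peaks without an ES 2i peak lay within 1 kb of one (median distance 12.7 kb), and 3.03% of ES 2i peaks without an NPC peak lay that near to one (median 18.5 kb).

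The chromosomes differed in the share of ES 2i sites that NPCs had, with chromosomes 5 and 8 lowest. On chromosome 5, 42.7% of 4159 ES 2i peaks had an NPC peak, and on chromosome 8, 42.7% of 3289. Over the 19 autosomes and X the median was 49.3%, and the highest was 52.4% on chromosome 19. NPC peaks per 100 ES 2i peaks ran from 44.6 on chromosome 8 and 45.1 on chromosome 5 to 55.9 on X. Both values were lower than the strength of the peaks gave. From the fold groups of its peaks, each chromosome has a share that it would show if every group behaved as in the whole genome, and the observed share was 0.870 of this on chromosome 8 and 0.876 on chromosome 5. Chromosome 17 followed with 0.936. X stood at the other end. Its peaks had the lowest median fold in both lists (13.75 in ES 2i cells and 12.8 in NPCs), its share from strength was 39.7%, and 50.8% were observed, a ratio of 1.28. Among peaks with a −log10 q of at least 20 in both lists, however, the share on X was 43.6%, under the 45.9% of all such ES 2i peaks.

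The low share on chromosome 8 ran along the chromosome, while on chromosome 5 it was uneven. In bins of 10 Mb with at least 50 ES 2i peaks, 12 of 13 bins of chromosome 8 were under the genome value of 48.3% (range 35.6% to 52.3%, median 41.9%). On chromosome 5, 8 of 16 bins were, and the range was 26.7% to 63.6%. The serum list was also shortest against ES 2i on chromosome 8, with 85.1 serum peaks per 100 ES 2i peaks against a median of 89.1. NPC peaks on chromosome 8 were the most often shared with ES 2i cells, at 96.7%, and those on X the least often, at 90.9%. On the Y chromosome the ES 2i list had 4 peaks, the serum list 3 and the NPC list none.

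**Figure D2:**
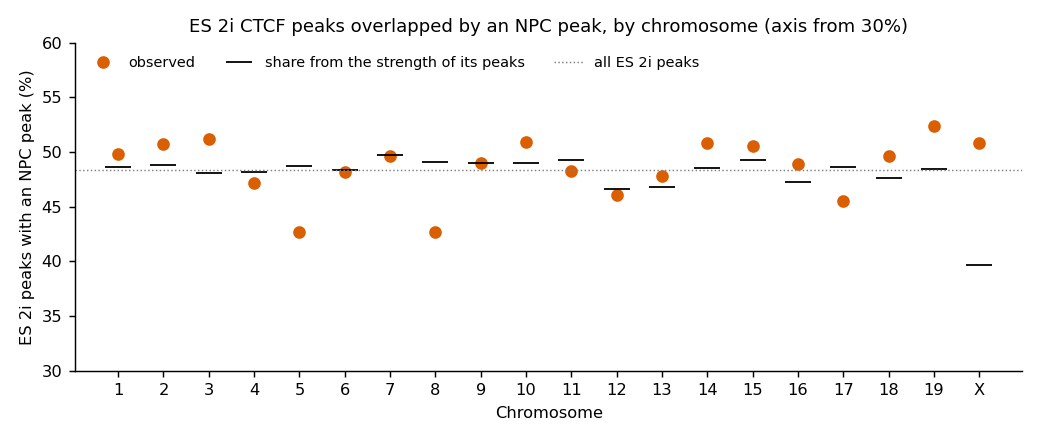
Share of ES 2i peaks with an NPC peak on each chromosome (points, vertical axis in percent from 30%), beside the share given by the fold groups of its peaks (dashes); the dotted line is the value over all ES 2i peaks, 48.3%. Chromosomes 5 and 8 lie under their dashes at 42.7%, and X lies above its dash of 39.7% at 50.8%.

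At the scale of 1 Mb the lists followed each other closely. Over the 2534 windows of 1 Mb with a peak in either list, the peak numbers had a Pearson correlation of 0.928 and a Spearman correlation of 0.933, given as a description, since windows share the libraries and the density of sites along the genome. Of 2531 windows with an ES 2i peak, 144 had no NPC peak, and of 2390 windows with an NPC peak, 3 had no ES 2i peak. Among the 1761 windows with at least 10 ES 2i peaks, a median of 50% of the peaks had an NPC peak, and in 8 windows none did. The largest of these 8 were chr12:116000001-117000000 with 20 ES 2i peaks, chr12:18000001-19000000 with 15 and chr6:69000001-70000000 with 13. The serum list overlapped 15, 7 and 12 of them. Of all NPC peaks 94.7% had an ES 2i peak, and 557 of 1262 windows with at least 10 NPC peaks had every peak matched. How many such windows the overall share alone would give was not computed. The lowest was chr12:35000001-36000000, where 5 of 10 had an ES 2i peak. It was followed by chr12:29000001-30000000, with 7 of 12, and chr16:50000001-51000000, with 12 of 18, which tied in share with chr15:65000001-66000000, with 8 of 12.

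NPC sites were spaced about 1.97 times as far apart as ES 2i sites. The median distance between neighbouring midpoints was 33.0 kb in NPCs (quartiles 10.6 and 85.6) and 16.7 kb in ES 2i cells (quartiles 5.88 and 43.5). Neighbours within 5 kb were 14.6% of NPC distances and 21.97% of ES 2i distances. The largest gaps were alike, 9.62 and 9.45 Mb. The ES 2i peaks of highest fold, cut to the length of the NPC list, had a median spacing of 31.0 kb, and 13.8% of their distances were within 5 kb. At equal number the spacing thus came near that of NPCs.

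Chains of sites, with each midpoint at most 5 kb from the next, were fewer in the NPC list than in the full ES 2i list, and not fewer than in an ES 2i list of equal length. The NPC list held 3449 chains of 2 or more peaks, 613 of 3 or more and 30 of 5 or more, against 8847, 2373 and 233 in ES 2i cells. The ES 2i list cut to equal length held 3255 chains of 2 or more and 576 of 3 or more, both under the NPC numbers. Chains took in 26.6% of NPC peaks and 37.7% of ES 2i peaks, or 25.1% of the ES 2i list cut to equal length. Overlap differed little with chain size. Single ES 2i peaks had an NPC peak in 47.1%, peaks in chains of 2 in 50.3%, of 3 in 51.8% and of 4 or more in 48.8%.

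ES 2i chains were matched in NPCs as a whole, in part or not at all. Of 6474 ES 2i pairs, 28.3% had both peaks matched in NPCs, 43.9% had 1 and 27.8% had neither. Of the 1642 chains of 3, 17.2% were matched throughout, 67.7% in part and 15.0% not at all. In the 731 chains of 4 or more these shares were 8.34%, 83.9% and 7.80%. With 48.8% to 51.8% of the peaks in chains matched, matches throughout or not at all grow rarer as a chain holds more peaks. The shares that independent matching would give were not computed, so the change with chain size is not a result about chains. The largest ES 2i chain, chrX:47950361-47976529, held 15 peaks in 26.2 kb, of which 7 had an NPC peak and 9 a serum peak. The chain of 10 at chr8:129499658-129514676 had 2 NPC and 8 serum matches, and the chain of 9 at chr1:88417043-88436543 had 3 and 9. It was 1 of 4 chains of 9, and the others, at chr11:106993394-107014597, chr12:114454153-114462740 and chr2:168696015-168709704, had 1, 8 and 0 NPC matches. The largest NPC chain, 8 peaks at chr12:114454256-114462688, was matched throughout, inside an ES 2i chain of 9. The next NPC chains had 7 peaks each, at chr15:103003030-103016505 (6 matched) and chr9:45216499-45229609 (7 matched).

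ES 2i sites without an NPC peak tended to follow one another along the chromosome. After an ES 2i peak without an NPC peak, 55.3% of the next peaks also lacked one, against 47.8% after a matched peak. From strength alone the shares with an NPC peak after the 2 kinds would be 47.7% and 49.0%, and they were 44.7% and 52.2%. Within 1 kb the next peak was unmatched in 61.3% and 45.0%. In the NPC list, at any distance, the next peak lacked an ES 2i peak in 10.4% after an unmatched and 5.04% after a matched peak, and within 1 kb in 19.2% (of 26 peaks) and 3.13%.

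Some of these runs were long. The 29005 unmatched ES 2i peaks fell into 12984 runs with a median of 2 peaks, and 132 runs had 10 or more, with 1758 peaks in all (6.06% of the unmatched). The serum list overlapped 73.5% of these 1758 peaks, against 69.6% of all unmatched ES 2i peaks. Runs grow longer where a larger share of a list is unmatched, here 51.7%, so the longest runs of different comparisons do not compare clustering. ES 2i peaks without a serum peak, 16.9% of the list, formed no run longer than 7. NPC peaks without an ES 2i peak, 5.33% of their list, formed no run longer than 4. That run lay at chr5:71483826-71487628, within 3.80 kb, had no serum peak, and the folds of its peaks were 6.89 to 8.92. All other NPC runs had 3 peaks or fewer.

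The longest runs lay on the distal part of chromosome 5 and on chromosome 12. At chr5:126252705-127715526, 57 ES 2i peaks followed each other over 1463 kb without an NPC peak, and 45 of them had a serum peak. After 3 NPC peaks a second run of 45 ES 2i peaks, 34 with a serum peak, filled chr5:128049458-128819058. The stretch of 2.57 Mb from the first to the second run held 123 ES 2i peaks, 106 serum peaks and 3 NPC peaks, all 3 at ES 2i sites. Within 3 Mb on either side NPC peaks were present, 88 before and 55 after the stretch, and the matched share was under that of the genome. Before the stretch 83 of 209 ES 2i peaks had an NPC peak (39.7%), and after it 53 of 198 (26.8%). The third run, 35 peaks at chr12:115629785-117249403 with 28 in the serum list, ended 17.005 kb before the next NPC peak. In all, 9 runs of 20 or more held 283 ES 2i peaks, 220 of them with a serum peak.

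**Figure D3:**
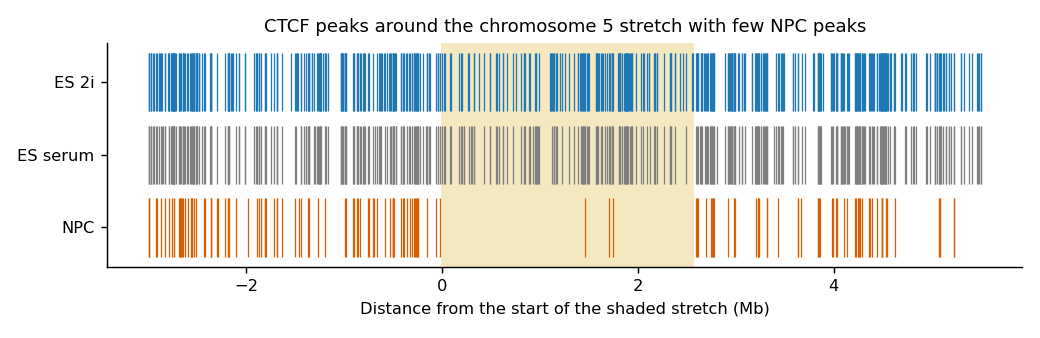
Peaks of the 3 CTCF lists (1 line per peak) around the chromosome 5 stretch, by distance in Mb from its start; the stretch of 2.57 Mb is shaded. It holds 123 ES 2i peaks, 106 ES serum peaks and 3 NPC peaks, with NPC peaks again present on both sides.

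At the loci that the study mapped by 5C, a method that counts ligated fragment pairs over chosen regions, the share of ES 2i sites without an NPC peak ranged widely. In the 7 loci together, 212 of 400 ES 2i peaks (53%) had no NPC peak, near the 51.7% of the whole genome. Of the 212, 154 were in the serum list, which overlapped 69.6% of all unmatched ES 2i peaks. Klf4, which encodes a pluripotency transcription factor, had the highest share of the 6 gene loci, with 19 of 25 peaks unmatched (76%). Sox2, a factor of both ES cells and neural progenitors, had 14 of 20 (70%). The locus of Nanog, another pluripotency factor, had 36 of 59 (61.0%). Olig1-Olig2, a pair of genes for neural lineage factors, had 24 of 44 (54.5%) and Oct4, a core pluripotency factor, 82 of 169 (48.5%). Nestin, the gene of an intermediate filament protein of neural progenitors, had the lowest share, 34 of 80 (42.5%). The gene desert on chromosome 5 had 3 ES 2i peaks and no NPC peak. With 20 or 25 peaks, the Sox2 and Klf4 shares are coarse.

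The ES 2i sites below were picked by rule as the strongest unmatched site of each gene locus. At Nanog the strongest ES 2i site without an NPC peak was chr6:122778046-122778535, with a fold of 45.9. At Oct4 it was chr17:34520181-34520519 (40.7), at Klf4 chr4:55305117-55305468 (39.5) and at Olig1-Olig2 chr16:90694957-90695365 (28.4). The Nestin site was chr3:88077946-88078258 (24.8) and the Sox2 site chr3:34670983-34671267 (24.6). Each of these 6 had a serum peak, as did at least 99.66% of the ES 2i peaks in each of their fold groups. NPC peaks without an ES 2i peak were 6 in all, 2 at Oct4, 1 each at Klf4, Nestin, Olig1-Olig2 and Sox2, and none at Nanog. The strongest was chr17:35093364-35093543 at Oct4, with a fold of 18.6.

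CTCF sites at the anchors of the authors' looping classes differed by class in which kind of site they held. The authors sorted 5C bin pairs (pixels) by the cell states in which they looped. A pixel was counted when either of its 4 kb anchor bins held the midpoint of a peak. Sites of the ES 2i list without an NPC peak were at 34.8% of the 451 pixels that looped in 2i alone and 39.8% of the 374 that looped in 2i and serum, against 18.8% of the 1820 background pixels. Sites present in both lists were at 14.9% and 19.5% of these, against 17.5% of background pixels. In the 347 pixels that looped in serum alone the 2 kinds were closer, at 22.8% for unmatched ES 2i sites and 19.6% for shared sites. The order turned in pixels that looped in NPCs. Shared sites were at 29.8% of the 712 NPC only pixels, 32.1% of the 530 in 2i and NPC and 34.7% of the 1424 constitutive ones, where unmatched ES 2i sites were at 20.6%, 24.0% and 25.1%. Loops of serum and NPC, 104 pixels, held both kinds often (39.4% shared, 35.6% ES 2i list only). With 4 kb added on each side of the bins these shares rose, and the more frequent kind within each class stayed the same. The order of the classes changed in part. Unmatched ES 2i sites were then most frequent in serum and NPC pixels (74.0%, against 68.7% for 2i and serum). Shared sites in 2i and serum pixels, at 41.4%, were then under background. Unmatched ES 2i sites were then at 65.2% and shared sites at 35.3% of 2i only pixels, against 50% and 59.97% of NPC only and 48.5% and 42.1% of background pixels.

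The loci held only 6 NPC sites without an ES 2i peak, so these were rare at anchors of any class. They were at 5.77% of pixels at most, and at 1.69% of NPC only pixels against 0.66% of background pixels. With the wider bins these values were 13.5% at most, in the serum and NPC class, and 4.78% against 2.20%. Between 37.5% and 66.6% of the pixels of each class had no peak of either list in either bin, or between 7.69% and 39.8% with the wider bins. Pixels are not independent, since neighbouring ones share bins (244 distinct bins in the 2i only class), and the classes differ in distance, with medians of 304 kb for 2i only, 240 kb for NPC only, 88 kb for constitutive and 136 kb for background pixels. The part of distance in the anchor shares was not tested.

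**Figure D4:**
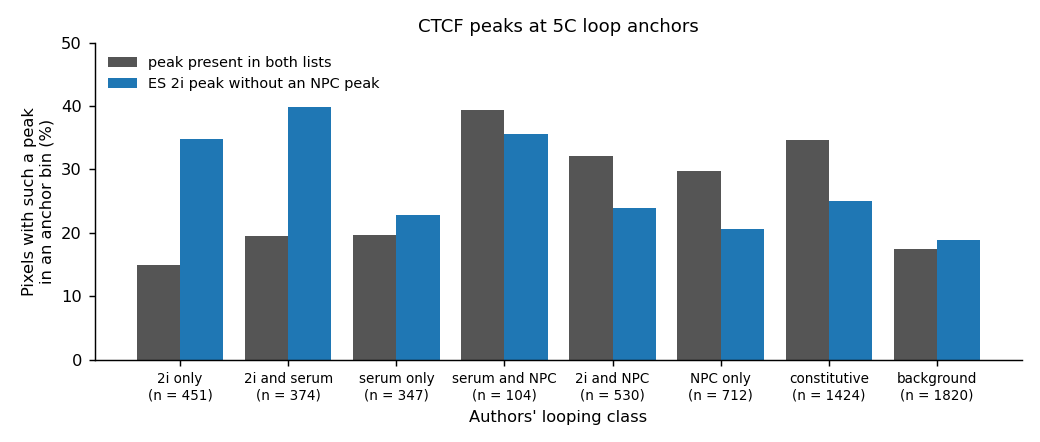
Share of the authors' 5C pixels (vertical axis, percent) with a CTCF peak present in both lists (grey) or an ES 2i peak without an NPC peak (blue) in either anchor bin, by looping class, with the number of pixels. Blue exceeds grey in the 2i only (34.8% against 14.9%) and the 2i and serum class. It does so by less in the serum only class (22.8% against 19.6%) and in background pixels. Grey exceeds blue in the NPC only (29.8% against 20.6%), 2i and NPC, serum and NPC, and constitutive classes.

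The 5C interaction scores, which were measured in 2 libraries per cell state, followed the CTCF state of both bins. The score is −10 times the log2 of the authors' interaction p-value, so a higher score is a smaller p-value under their model. A score of 10 is an interaction p-value of 0.5. Means such as 13.4 or 16.7 therefore do not show that a typical bin pair looped, and only their differences are described. Of the 1807 bins, 178 held a site present in both lists, 173 held only ES 2i sites without an NPC peak, 6 only NPC sites without an ES 2i peak, and 1450 no site. Between bins that both held only unmatched ES 2i sites (2153 pairs), the mean score was 16.7 and 16.0 in the ES 2i libraries and 13.5 and 13.4 in the NPC libraries. Both ES 2i values were above both NPC values, and the NPC mean minus the ES 2i mean was −2.93. The NPC values were near those of pairs with no site in either bin (120928 pairs), 13.7 and 13.6 in NPCs and 13.6 and 13.7 in ES 2i cells.

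Between 2 bins with shared sites (2936 pairs) the order was the opposite, with 15.9 and 15.7 in ES 2i cells and 17.6 and 17.05 in NPCs, a difference of 1.498. Pairs of an unmatched ES 2i bin and a shared bin (4897) had 16.1 and 16.0 against 15.8 and 15.5. That difference, −0.39, became 0.27 without the Oct4 locus, which held 3050 of these pairs. It was −0.24 without NPC replicate 2 and −0.53 without NPC replicate 1. For an unmatched ES 2i bin and a bin with no site (29587 pairs) the means were 14.8 and 14.8 against 13.5 and 13.5, and for a shared bin and a bin with no site (30164) 14.5 and 14.6 against 15.3 and 15.1. The 6 bins with only NPC sites had 11.5 and 12.2 in ES 2i cells and 17.4 and 16.1 in NPCs with bins without a site (1100 pairs). This difference, 4.90, was 3.05 without the Nestin locus and 5.97 without Oct4. With 2 libraries a group, a two-sided exact permutation test cannot go below p = 0.333, so no test was made. Bin pairs of a locus share bins and are not replicates.

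**Figure D5:**
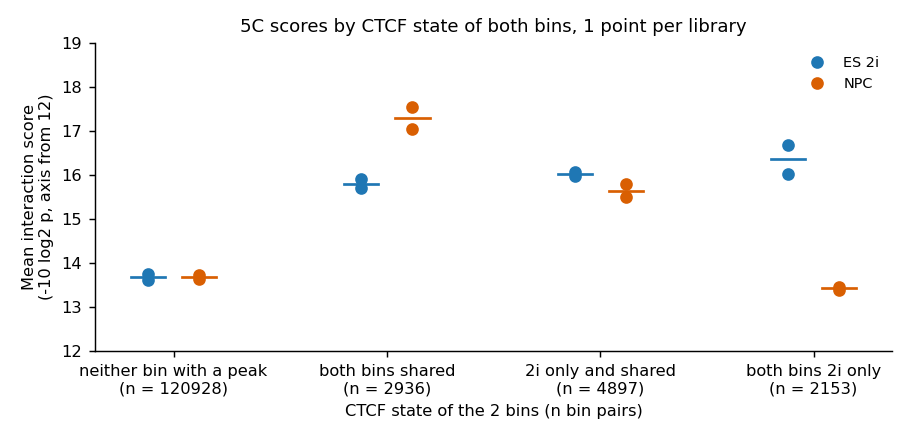
Mean 5C interaction score (−10 log2 p, axis from 12) of bin pairs by the CTCF state of both bins, 1 point per library and a line at the mean of each cell state. ES 2i libraries are higher where both bins hold only ES 2i sites without an NPC peak (16.7 and 16.0 against 13.5 and 13.4), NPC libraries are higher where both bins hold shared sites, and the 2 states lie together where neither bin has a site.

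The difference at unmatched sites was found at most loci and was not the same at all. Between bins with only unmatched ES 2i sites, the NPC score minus the ES 2i score was −7.86 at Klf4 (134 pairs), −3.71 at Sox2, −3.55 at Oct4, −3.31 at Olig1-Olig2 and −1.22 at Nanog. At Nestin, the locus with the smallest share of unmatched sites, it was 1.04, with 12.8 and 12.1 in ES 2i cells and 12.5 and 14.4 in NPCs, which overlap. Between bins with shared sites it was 3.90 at Olig1-Olig2, 3.16 at Nanog and 1.69 at Oct4, and −0.21 at Nestin. The values for shared sites at Sox2 (23.6) and Klf4 (−4.69) rest on 9 and 13 bin pairs. At Klf4 the NPC score was also lower for other pairs with a shared bin. The difference was −6.37 for an unmatched and a shared bin (93 pairs). For a shared bin and one with no site it was −3.26 (1049 pairs), against 0.67 over all loci. The low NPC scores at Klf4 were thus not limited to unmatched sites. Between the bins with only NPC sites and those with no site, the difference was 14.01 at Nestin and 8.61 at Sox2. It was 2.04 at Oct4, 1.34 at Olig1-Olig2 and 0.15 at Klf4. The libraries overlapped at Klf4 (16.99 and 18.5 against 19.1 and 16.6) and at Oct4 (12.3 and 14.2 against 16.6 and 13.9).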

How the data were processed

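The deposited peak lists hold, for each peak, a fold enrichment (a ratio), a −log10 p, a −log10 q and a summit, as the authors' caller gave them. The submitters' processing notes list MACS2, Bowtie and the build mm9 without saying which step used which, and each list belongs to 1 library. The names of the lists say that reads were down-sampled, to a depth not given in the sources used here. The 5C table holds the authors' interaction score and p-value per bin pair and library, and the looping classes are the authors' own. The score was checked to be −10 log2 of the deposited p-value for 769186 values, leaving out the smallest p-values. A further 33 columns of per-sample values were not used. The depth of the lists is not known from them.

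Intervals were compared with a minimum overlap of 1 bp (Python 3.11.15, numpy 2.4.6, pandas 2.3.3; the counts equal those of bedtools 2.31.1). The overlap code was tested on simulated data of 20000 peaks and was right for all of them. Shares carry 95% Wilson intervals where given. Chains use 5 kb between midpoints, windows 1 Mb with at least 10 peaks. No genome or annotation of mm9 was used here, so motifs, sequences and genes at peaks were not analysed. Regions named are the 5 strongest unmatched peaks per list, the 5 strongest shared peaks by ES 2i fold, the 3 windows with the highest unmatched share, the 3 longest runs and 3 largest chains per list, and the strongest unmatched peak per 5C locus. In NPCs, 1 run had 4 peaks and those tied at 3 are not listed. The members and lists were chosen with earlier results of these data known. Alternatives to the overlap rule, the threshold, the list length, the window, the chain distance and the anchor bins were tried, and libraries and loci were left out in turn.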

Additional observations from a re-analysis of the deposited data

How the results depend on the processing

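The share of ES 2i peaks with an NPC peak (48.3%) was 38.7% when 50% of both intervals had to overlap, 49.2% with intervals up to 500 bp apart, 45.9% with a −log10 q of at least 20 in both lists, 55.9% for ES 2i peaks with a fold of at least 10, 71.1% for the strongest ES 2i peaks cut to the NPC number and 49.2% without chromosomes 5 and 8 (added after seeing the data). The share of NPC peaks with an ES 2i peak (94.7%) was 75.3% with the 50% rule, 93.7% by summits within 100 bp, 94.95% with the q limit, 96.4% with the fold limit and 71.7% against the cut ES 2i list. With the q limit the median spacing was 43.0 kb in NPCs and 20.4 kb in ES 2i cells, and with the cut list 31.0 kb in ES 2i cells. Chains of 1 kb held 5.17% of NPC and 7.08% of ES 2i peaks, chains of 10 kb 41.4% and 57.0%, and chains of 5 kb in the cut ES 2i list 25.1%. With the q limit the chromosome shares were 39.9% on 5, 39.7% on 8, 43.6% on X and 49.1% on 2, so X was no longer above the genome value, and the median widths were 223 bp in NPCs and 302 bp in ES 2i cells.

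With 4 kb added on each side of the anchor bins, unmatched ES 2i sites were at 65.2% of 2i only and 68.7% of 2i and serum pixels, and shared sites at 59.97% of NPC only and 69.2% of constitutive pixels. With the q limit the values were 32.9% for 2i and serum and 31.1% for constitutive pixels. The alternatives for the scores were added after seeing the data. For 2 unmatched ES 2i bins the NPC minus ES 2i difference was −3.81 with the q limit, −3.42 without Nestin and −2.13 without Oct4. For an unmatched ES 2i bin and one with no site it was −1.44 with wider bins, −1.63 with the q limit, and −1.10, −1.39, −1.54 and −1.12 without Klf4, Nanog, Nestin and Oct4. For an unmatched and a shared bin it was −0.62 without Nestin and reversed to 0.27 without Oct4; the cause was not tested. For a shared bin and one with no site it was 0.40 with wider bins, 0.93 without Nestin and 0.44 without Olig1-Olig2. For 2 shared bins it was 2.09 with the q limit and 2.01 without Nestin, and for an NPC only bin and one with no site 3.05 without Nestin and 5.97 without Oct4. No list held an interval more than once, so counting every deposited row changed nothing. Leaving out 1 of the 5C libraries gave differences of −3.25 to −2.60 for 2 unmatched bins, −1.34 to −1.27 for an unmatched bin and none, −0.53 to −0.24 for an unmatched and a shared bin, 0.53 to 0.81 for a shared bin and none, 1.25 to 1.75 for 2 shared bins and 4.29 to 5.52 for an NPC only bin and none. With 2 libraries a group such a value always stays within the spread used here, so it says nothing about stability. The remaining 51 alternatives moved a value by less than its spread or counting interval, or a count by less than 1.5 times. No paired analysis was possible because each ChIP group has 1 library and no test was made on the 5C scores. The 5C libraries share replicate numbers, which are not known to pair them. By number, the difference for replicates 1 and 2 was −3.23 and −2.62 for 2 unmatched bins, −0.28 and −0.49 for an unmatched and a shared bin, and 1.64 and 1.35 for 2 shared bins.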
